A study of Sus scrofa with 9 samples.

Results

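The miR-26 and miR-181 families were followed through a small RNA sequencing series of pig gametes (MII oocytes and sperm) and PN embryos. Members were all names of the deposited table that, without their species prefix, begin with miR-26 or miR-181 followed by an optional letter, whatever the arm or sequence variant. This gave 13 names of 1313, 5 of the miR-26 family and 8 of the miR-181 family, of which 6 carried the pig prefix (ssc) and 7 the prefix of another species. The filter on low counts kept 10 of the 13 for testing, 4 of miR-26 and 6 of miR-181, among 587 names kept in all. Suffixes such as R-1 or 1ss11TC mark sequence variants (isomiRs), and their exact meaning was not given in the sources used here.

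Each group had 3 libraries, and all 9 were labelled as without treatment, with no genotype or allele given. MII oocytes are mature eggs that wait in metaphase II for fertilization. According to the study's methods they were matured in vitro from follicles of slaughterhouse gilts of the Long White breed and freed of cumulus cells. PN embryos, the 1-cell stage with distinct maternal and paternal pronuclei, were made by in vitro fertilization of such oocytes with semen of Landrace boars. The sperm profiled were fresh and purified, from Large White boars. The sources did not state that the libraries of a group came from separate animals or collections, so the p-values below measure the spread between libraries, which may be technical.

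A mature miRNA guides the Argonaute complex to messenger RNAs that pair with its seed, the bases near its 5′ end. miR-26a and miR-26b share a seed and differ inside the mature sequence, and they are widely expressed miRNAs that lie in introns of the CTDSP genes and are known to repress the histone methyltransferase EZH2. miR-181a, miR-181b, miR-181c and miR-181d also share a seed, and miR-181a is best known for setting receptor signalling thresholds in lymphocytes. Members of a family can therefore act on the same sites, so the level of the family and the member that carries it are separate questions.

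In the RefSeq annotation of Sscrofa11.1, the build named in the submitters' processing notes, the family genes found lie at 4 places, and no entry for a miR-26b gene was found in the table used. MIR26A lies at chr5:23112744-23112827, within the span of CTDSP2. The miR-181a and miR-181b precursors form 2 pairs, MIR181B-1 (chr10:21696492-21696571) with MIR181A-1 (chr10:21696653-21696756), separated by 81 bases within the span of LOC110255652, and MIR181A-2 (chr1:265497249-265497328) with MIR181B-2 (chr1:265499111-265499196), separated by 1782 bases within the span of NR6A1. MIR181D (chr2:65279773-65279852) and MIR181C (chr2:65279950-65280036) are 97 bases apart and within no listed gene. Each of miR-181a and miR-181b thus has a copy at 2 loci, and its name was listed in 2 rows with equal counts, which were summed.

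Library totals did not overlap between groups, at 289183 to 381674 counts in MII oocytes, 422630 to 771001 in PN embryos and 1640492 to 2455102 in sperm, so depth and group cannot be told apart. Levels are given as CPM, the count scaled to a common table total of 1000000. Male germ cell miRNAs (miR-34b, miR-34c and the miR-449 family) summed to 151499 to 153743 CPM in sperm, against 2036 to 2455 CPM over MII oocytes and PN embryos. Of 8 oocyte and early embryo miRNAs, miR-371 carried the sum of 1089 to 1286 CPM in MII oocytes, and 0 were listed in sperm. The sperm libraries also held more of the epithelial list in sum (6391 to 6905 CPM with 5 of 5 listed, against 1359 to 1690 CPM with 4 of 5 in MII oocytes and 1372 to 1556 CPM with 4 of 5 in PN embryos), mostly as miR-200b (4071 CPM in sperm and 249 in MII oocytes), while miR-141 was lower (33.1 against 94.8 CPM). The PN embryo libraries held more of the blood list (837 to 875 CPM with 5 of 6 listed, against 166 to 314 CPM with 5 of 6 in MII oocytes and 268 to 380 CPM with 6 of 6 in sperm). The ovarian follicle list summed to 851 to 1360 CPM in MII oocytes, 1074 to 1172 CPM in PN embryos, and 703 to 772 CPM in sperm, with 5 of 5 listed in each. The sperm sum was almost all miR-383 (686 CPM, against 93.1 in MII oocytes), while miR-202 averaged 15.1 CPM in sperm and 919 in MII oocytes, and miR-143, miR-145 and miR-224 were also lower in sperm. The part of these cells in the levels below was not tested, and in such bulk samples fewer cells of a type and less RNA per cell cannot be told apart.

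Summed over its names, the miR-26 family took 0.911% of all counts in MII oocytes, 1.03% in PN embryos and 2.53% in sperm. The miR-181 family took 0.149%, 0.223% and 0.263%, respectively. In the order of levels, sperm stood above PN embryos and PN embryos above MII oocytes for each family, with no overlap of the libraries at any step. The sums were not tested. Scaled by library totals alone, as these shares are, all names had a median log2 fold change of 0.16 from MII oocytes to PN embryos. That of ssc-miR-26a was 0.19, so the step of miR-26 was near that of the table. In MII oocytes the sum lay between 0.788% and 0.990% for miR-26 and between 0.133% and 0.172% for miR-181. In PN embryos it lay between 1.02% and 1.04%, and between 0.206% and 0.234%. In sperm it lay between 2.52% and 2.56%, and between 0.262% and 0.265%.

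miR-26a was the leading member of the whole set. ssc-miR-26a stood at 8011, 8032 and 6811 CPM in MII oocyte libraries 1 to 3, at 8620, 8865 and 8596 CPM in PN embryo libraries 1 to 3 and at 24124, 24340 and 24014 CPM in sperm libraries 1 to 3. It ranked as the 13th name by mean level in MII oocytes and in PN embryos and as the 11th in sperm. All sperm libraries were higher than every other library. Sperm and MII oocytes differed 3.17-fold in mean CPM, with a fitted log2 fold change of 1.72 ± 0.06 (SE, edgeR q = 8.75e-10). Against PN embryos sperm was 2.78-fold higher, at 1.60 ± 0.06 (edgeR q = 1.26e-09). With libraries thinned to equal depth these fold changes were 1.09 and 1.03 and were still called. Thinning also moved the median of all names down in sperm, from 0 to -0.69 against MII oocytes and from -0.52 to -1.12 against PN embryos. With library totals alone the fold changes of ssc-miR-26a were 1.67 and 1.47. PN embryos did not pass the test against MII oocytes, at 0.12 ± 0.06 (edgeR q = 0.181), although the libraries of these groups did not overlap.

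**Figure D1:**
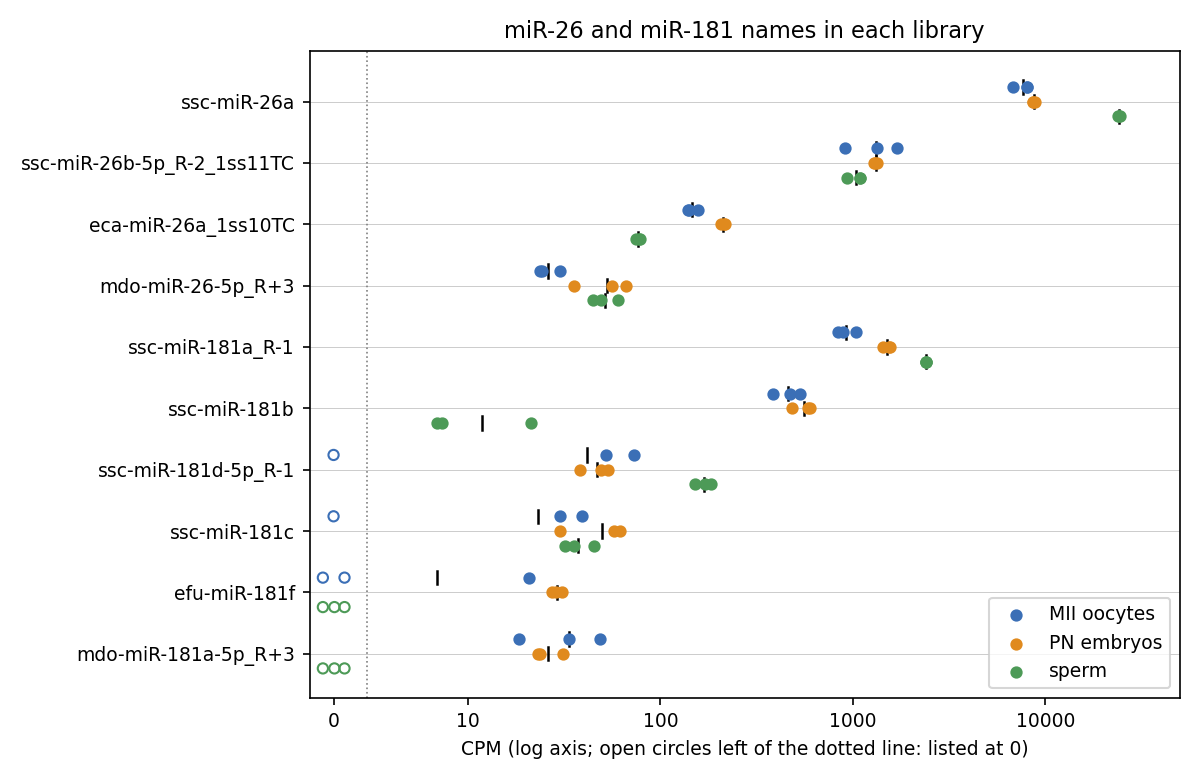
Level of each of the 10 tested names in each library, in CPM on a log axis. Each point is a library, black ticks are means of 3 libraries, and open circles left of the dotted line are libraries in which the name was listed at 0. ssc-miR-26a lies at 24014 to 24340 CPM in sperm and at 6811 to 8865 CPM elsewhere, while ssc-miR-181b falls to 6.92 to 21.3 CPM in sperm.

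The only name listed for miR-26b, a variant, did not follow miR-26a. Whether this variant, ssc-miR-26b-5p_R-2_1ss11TC, measures miR-26b itself was not tested. Its levels were 1691, 1338 and 908 CPM in MII oocyte libraries 1 to 3, 1292, 1307 and 1340 in PN embryos and 931, 1087 and 1083 in sperm. The MII oocyte libraries spread over the whole range of the sperm libraries and overlapped the PN embryos too. It passed no test, with log2 fold changes of -0.08 ± 0.17 from MII oocytes to PN embryos, -0.29 ± 0.17 from MII oocytes to sperm and -0.21 ± 0.16 from PN embryos to sperm (SE, edgeR q = 0.888, 0.126 and 0.224). With libraries thinned to equal depth, where the centre of all names moved down in sperm, the sperm values were -0.91 (edgeR q = 1.81e-04) and -0.75 (edgeR q = 8.50e-04), still below the fold threshold.

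The counts of miR-26a and of this variant share reads. Each held a value that was not whole in 7 of 9 libraries, within a tolerance of 0.05, whereas their sum was whole in 9 of 9. Some reads were thus divided between these names by the authors' counting, and whether the variant's reads came from miR-26a or from miR-26b was not tested. The sum of the pair was 8930 ± 1063 CPM in MII oocytes, 10007 ± 144 in PN embryos and 25193 ± 203 in sperm (SD, n = 3 each), so the higher level in sperm does not depend on how the reads were divided.

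The ratio of miR-26a to the miR-26b variant was taken within each library, where depth and scaling cancel. The division of shared reads between these names does not cancel, so the ratio need not compare miR-26a with miR-26b itself. In MII oocyte libraries 1 to 3 there were 4.83, 6.10 and 7.64 counts of miR-26a per count of the variant. The PN embryo libraries had 6.83, 6.94 and 6.56. In sperm libraries 1 to 3 the ratio was 25.98, 22.5 and 22.2. PN embryos lay inside the range of MII oocytes, and all sperm libraries lay above both. On the log2 scale the means were 2.60 ± 0.33, 2.76 ± 0.04 and 4.55 ± 0.13 (SD, n = 3), and the difference of sperm was 1.95 from MII oocytes and 1.79 from PN embryos (two-sided exact permutation p = 0.1 and 0.1, adjusted p = 0.12 over 6 comparisons). With 3 libraries against 3, 0.1 is the smallest p this test can give. PN embryos differed from MII oocytes by 0.16 (exact permutation p = 0.6).

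The remaining miR-26 names, which come from other species' entries, were far lower and moved in different directions. eca-miR-26a_1ss10TC, a variant of miR-26a under the horse prefix, stood at 157, 140 and 138 CPM in MII oocytes, 215, 214 and 206 in PN embryos and 74.4, 78.5 and 77.0 CPM in sperm. The 3 groups did not overlap, and sperm was lowest. Its log2 fold change was 0.47 ± 0.13 from MII oocytes to PN embryos (edgeR q = 0.0236), -0.87 ± 0.13 from MII oocytes to sperm (edgeR q = 1.23e-04) and -1.33 ± 0.12 from PN embryos to sperm (edgeR q = 1.39e-06). The second of these was below the fold threshold. It was called at -1.66 with libraries at equal depth, where the centre of all names moved down in sperm. It took 0.302% of the family's counts in sperm, against 1.60% in MII oocytes and 2.06% in PN embryos.

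mdo-miR-26-5p_R+3, under the opossum prefix, was listed at 23.6, 30.1 and 24.2 CPM in MII oocytes, 35.5, 56.1 and 66.1 in PN embryos and 60.3, 49.0 and 44.4 CPM in sperm. Both other groups lay above MII oocytes and overlapped each other. Its log2 fold change was 0.99 ± 0.32 in PN embryos (edgeR q = 0.0473, below the fold threshold) and 1.04 ± 0.30 in sperm (edgeR q = 0.00826), each against MII oocytes. With only 7 to 9 counts per MII oocyte library, it lay at the edge of the threshold. Without PN embryo library 1 the PN value was 1.16 and was called. At equal depth, where the centre of all names moved down in sperm, the sperm value was 0.54 and was not called.

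**Figure D2:**
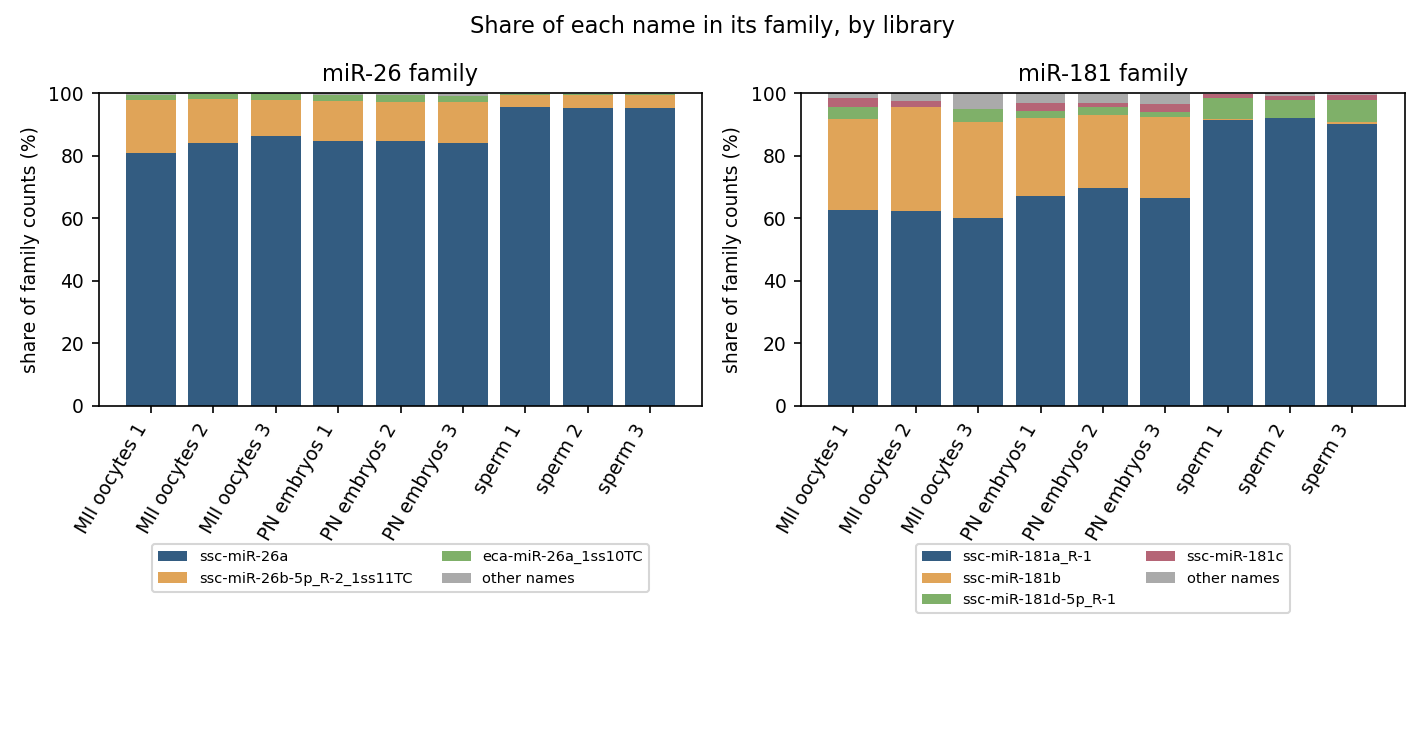
Share of each name in the counts of its family, in percent, for each library (bars sum to 100%). ssc-miR-26a takes 80.95% to 86.4% of miR-26 in MII oocytes and at least 95.2% in sperm, and ssc-miR-181b takes 28.9% to 33.1% of miR-181 in MII oocytes and at most 0.805% in sperm.

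In the miR-181 family the leading member was miR-181a. ssc-miR-181a_R-1 was measured at 833, 889 and 1034 CPM in MII oocyte libraries 1 to 3, at 1566, 1437 and 1534 in PN embryos and at 2414, 2410 and 2386 in sperm. The 3 groups were apart, with the lowest levels in MII oocytes and the highest in sperm. PN embryos passed the adjusted p threshold against MII oocytes at a log2 fold change of 0.65 ± 0.09 (edgeR q = 5.33e-04), a difference of 1.65-fold in mean CPM that is below the fold threshold. Sperm was higher than MII oocytes by 1.45 ± 0.09 (edgeR q = 8.93e-08) and differed from PN embryos by 0.80 ± 0.08 (edgeR q = 5.87e-06, below the fold threshold). With libraries thinned to equal depth the difference of sperm from MII oocytes was 0.85 and no longer reached the fold threshold. That from PN embryos was 0.26. Thinning also moved the median of all names down in sperm, from 0 to -0.69 and from -0.52 to -1.12 in these comparisons. With library totals alone the differences of ssc-miR-181a_R-1 were 1.39 and 0.67.

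In sum, the blood list was higher in PN embryos than in MII oocytes, as was miR-181a, but its members did not move together. miR-451, a red cell miRNA, averaged 102 CPM in MII oocytes, 509 in PN embryos and 73.4 in sperm. miR-142, which marks white blood cells in general, averaged 33.2, 34.3 and 92.1 CPM, and miR-150, a lymphocyte miRNA, 4.37, 0 and 8.30 CPM. miR-144 averaged 24.3, 154 and 5.97 CPM, miR-486 averaged 93.2, 142 and 128, and miR-223 averaged 0, 15.5 and 11.8. In sperm, where miR-181a was highest, miR-451 and miR-144 were lowest and miR-142 and miR-150 highest. miR-486 and miR-223 in sperm lay between MII oocytes and PN embryos. The part of blood cells in the level of miR-181a was not tested.

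miR-181b, the partner of miR-181a at both loci, went the other way in sperm. ssc-miR-181b had 383, 471 and 529 CPM in MII oocytes, 583, 482 and 601 in PN embryos and only 7.31, 6.92 and 21.3 CPM in sperm. In counts, sperm libraries 1 to 3 held 12, 12 and 52.3 reads of it, fewer than the 141 to 153 reads of the far shallower MII oocyte libraries. The sperm libraries lay below all others, and sperm library 3 stood above the other two. The log2 fold change was -5.09 ± 0.32 against MII oocytes and -5.30 ± 0.31 against PN embryos, and without sperm library 3 it was -5.93 and -6.15. ssc-miR-181b passed the filter on low counts through MII oocytes and PN embryos. Its sperm values are therefore a description, and no q is given for them. PN embryos and MII oocytes overlapped, at 0.20 ± 0.24 (edgeR q = 0.662).

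Some reads were divided between miR-181b and miR-181d, whose sequences are close. The summed rows of miR-181b were not whole in 3 libraries, and were whole in 9 of 9 once ssc-miR-181d-5p_R-1 was added. The sum of these names was 503 ± 87.7 CPM in MII oocytes, 602 ± 61.9 in PN embryos and 180 ± 22.8 in sperm (SD, n = 3 each), with all sperm libraries between 159 and 204 CPM and all MII oocyte libraries between 435 and 602 CPM. The lower level in sperm was therefore present however these reads were assigned, and was smaller in the sum than in miR-181b alone.

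The ratio of miR-181a to miR-181b within a library showed the widest separation. MII oocyte libraries 1 to 3 had 2.22, 1.95 and 2.07 counts of miR-181a per count of miR-181b. PN embryo libraries 1 to 3 had 2.72, 3.04 and 2.62. In sperm the ratios were 318, 336 and 111. The 3 groups did not overlap. The log2 ratio was 1.06 ± 0.09, 1.48 ± 0.11 and 7.83 ± 0.90 (SD, n = 3), so that PN embryos exceeded MII oocytes by 0.42 and sperm exceeded MII oocytes by 6.78 and PN embryos by 6.35. Each of these differences had a two-sided exact permutation p = 0.1, the smallest possible here, and an adjusted p = 0.12 over the 6 comparisons. The size of the ratio depends on how reads were divided between miR-181b and miR-181d. With miR-181d added, the pair averaged 503, 602 and 180 CPM, against 919, 1513 and 2403 CPM of ssc-miR-181a_R-1. Sperm was still highest in miR-181a and lowest in the pair, by a smaller factor.

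**Figure D3:**
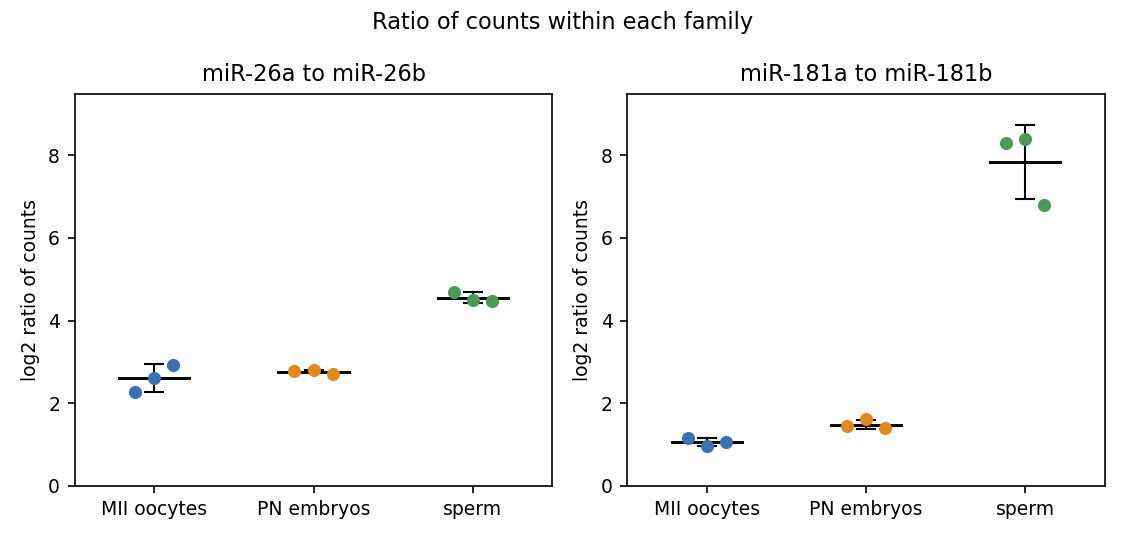
Ratio of counts within each library on the log2 scale, miR-26a to the miR-26b variant at left and miR-181a to miR-181b at right. In both panels some reads of the lower name were divided with another name. Points are libraries, horizontal lines are means and bars are the SD of 3 libraries. The sperm libraries lie above all others in both panels, with a mean of 4.55 at left and 7.83 at right.

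miR-181d rose in sperm and miR-181c did not pass a test, although their genes are neighbours. Some reads were divided between miR-181d and miR-181b, as given above, and the sum of that pair was lower in sperm. Whether the rise of miR-181d depends on this division was not tested. ssc-miR-181d-5p_R-1 was at 52.4, 0 and 72.6 CPM in MII oocyte libraries 1 to 3, at 53.6, 48.9 and 38.0 in PN embryos and at 171, 152 and 183 in sperm. All sperm libraries lay above all others, and the log2 fold change was 2.06 ± 0.48 against MII oocytes (edgeR q = 0.00238) and 2.00 ± 0.42 against PN embryos (edgeR q = 0.00104). PN embryos against MII oocytes gave 0.06 ± 0.59 (edgeR q = 1). This value turned negative, to -0.50, without MII oocyte library 2, where the name was listed at 0.

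ssc-miR-181c was at 39.3, 30.1 and 0 CPM in MII oocytes, 61.5, 30.2 and 57.1 in PN embryos and 35.4, 31.7 and 45.2 CPM in sperm. The libraries of the groups overlapped in all 3 comparisons. The log2 fold changes were 0.95 ± 0.63, 0.70 ± 0.60 and -0.25 ± 0.49 from MII oocytes to PN embryos, from MII oocytes to sperm and from PN embryos to sperm (edgeR q = 0.334, 0.299 and 0.634). The MII oocyte libraries held 15, 9 and 0 counts of it.

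The final pair of tested names was listed in eggs or embryos and at 0 in every sperm library, the deepest of the series. mdo-miR-181a-5p_R+3, a variant of miR-181a under the opossum prefix, had 18.3, 33.4 and 48.4 CPM in MII oocytes and 23.7, 23.0 and 31.1 CPM in PN embryos. efu-miR-181f, under a bat prefix, had 0, 0 and 20.7 CPM in MII oocytes and 30.8, 28.8 and 27.2 CPM in PN embryos. Values of 1 to 4 reads were rare in the table, so a listed 0 may stand for up to about 5 reads, and against 5 reads per library the variant of miR-181a was at least 12.6-fold lower in sperm than in MII oocytes and at least 9.76-fold lower than in PN embryos. For efu-miR-181f the bounds were at least 2.60-fold and at least 10.9-fold. Both names passed the filter on low counts only through the groups that hold them, and so had to differ from sperm. Their values there are a description, and no q is given. For efu-miR-181f the bound against MII oocytes rests on the 6 reads of MII oocyte library 3, and the name was left out by the filter when sperm and MII oocytes were fitted without the PN embryos. Without that library the PN embryos were called higher than MII oocytes, which were then listed at 0 throughout, and with all libraries they were not (edgeR q = 0.241).

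The 3 names left out by the filter, ocu-miR-26a-3p, ocu-miR-181c-3p and efu-miR-181a_L-1R-1, ran from 0 to 17.3 CPM and never exceeded 28 counts. The first pair are the only 3p arm names of these families, so nearly all family counts came from 5p strands or from names without an arm.

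Counted over the 10 tested names, 0 were called between PN embryos and MII oocytes at q under 0.05 and a log2 fold change of 1 or more in size, where 12.9% of all names were. At q under 0.05 alone 3 passed, all higher in PN embryos (miR-181a, eca-miR-26a_1ss10TC and mdo-miR-26-5p_R+3), against 25.2% of all names. The groups did not overlap for 5 of 10, against 39.5%. The members' median log2 fold change was 0.34 and that of all names 0.08.

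Sperm and MII oocytes differed at 7 of 10 names, 4 higher (miR-26a, miR-181a, miR-181d and mdo-miR-26-5p_R+3) and 3 lower (miR-181b, mdo-miR-181a-5p_R+3 and efu-miR-181f), where 83.0% of all names were called. The groups did not overlap for 7 of 10, against 81.6%. Sperm and PN embryos differed at 6 of 10, 2 higher (miR-26a and miR-181d) and 4 lower (eca-miR-26a_1ss10TC, miR-181b, mdo-miR-181a-5p_R+3 and efu-miR-181f), where 86.2% of all names were called. The groups did not overlap for 8 of 10, against 92.2%. The median of the members was 0.20 against 0 for all names in the former comparison, and -0.23 against -0.52 in the latter. The shares called are thus near or under the background of a table in which most names differed between sperm and the other groups. The calls of mdo-miR-181a-5p_R+3 and efu-miR-181f in both comparisons follow from the filter, as described above, and without these names 5 of 8 and 4 of 8 were called. ssc-miR-181b is still counted there, although it too passed the filter through MII oocytes and PN embryos, at 6.92 to 21.3 CPM in sperm. These comparisons share libraries and are not independent of each other.

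**Figure D4:**
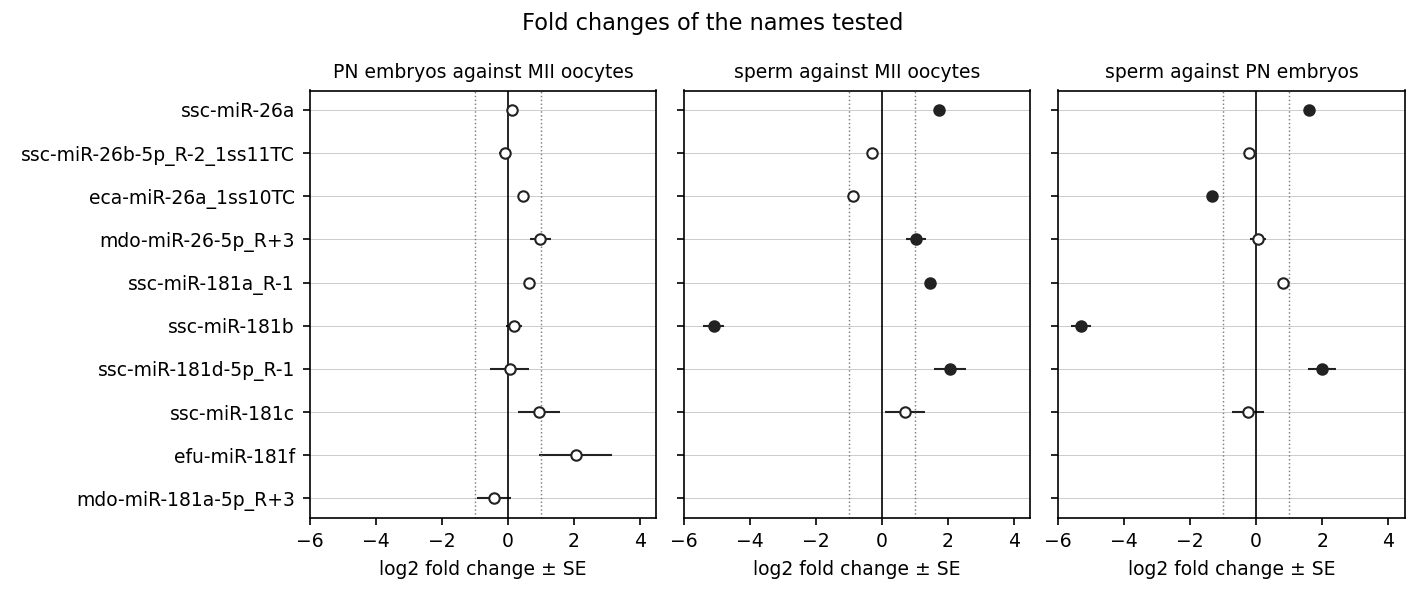
Fitted log2 fold change of each tested name in the 3 comparisons, with SE as horizontal bars. Filled points were called (q under 0.05, log2 fold change of 1 or more in size), open points were not, dotted lines mark -1 and 1, and names listed at 0 in all sperm libraries are not drawn in the sperm comparisons. ssc-miR-26a lies at 1.72 and 1.60 and ssc-miR-181b at -5.09 and -5.30 in the comparisons of sperm.

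Other large miRNA families gave a frame for these levels. The let-7 and miR-98 family, which restrains growth and stem cell genes, took 3.09% of counts in MII oocytes, 3.61% in PN embryos and 14.4% in sperm, and the miR-30 family took 4.49%, 3.80% and 15.3%. Against MII oocytes, 13 of 17 tested let-7 and miR-98 names rose in sperm and 0 fell, at a median log2 fold change of 2.32. For miR-30, 5 of 8 names rose and 2 fell, at a median of 2.55. Of all names, 42.2% were called higher and 40.7% lower in this comparison. The miR-26 and miR-181 names had a median of 0.20 and, like miR-30, calls in both directions. The difference between families was not tested.

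Among 254 names with a mean of at least 100 CPM, those whose levels over the 9 libraries ran most alike were found for both leading members, by the root mean square difference of their centred log2 levels. The nearest to ssc-miR-26a were ssc-let-7c at 0.11, ssc-let-7a at 0.15 and ssc-miR-140-3p_R-1 at 0.16. ssc-let-7c averaged 486 CPM in MII oocytes, 573 in PN embryos and 1385 in sperm. The nearest to ssc-miR-181a_R-1 were ssc-miR-23a_R+1 at 0.17, ssc-let-7d-5p at 0.27 and mmu-miR-146a-5p_R+2 at 0.29. ssc-miR-23a_R+1 averaged 394, 708 and 943 CPM. All of these values come from the same 9 libraries and share their depth, so the likeness is a description only.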

How the data were processed

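Small RNA of 3 libraries each of MII oocytes, PN embryos and sperm was analysed, with groups taken from the sample titles and columns matched through the library names in the descriptions. The authors deposited estimated counts, marked as raw, for every miRNA name, and their counting divided reads that fit several names, so that 19.8% of values above 0 were not whole. The aligner and miRNA caller are not given in the sources used here. The build, Sscrofa11.1, came from the submitters' processing notes.

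Rows of repeated names were summed and rounded to whole numbers. All 9 libraries entered 1 quasi-likelihood fit of edgeR 4.0.16 (R 4.3.3) with group as factor, TMM scaling and filterByExpr (minimum count 10), which kept 587 names holding 99.8% of counts. P-values were adjusted by Benjamini-Hochberg within each comparison (q), and names were called at q under 0.05 and a log2 fold change of 1 or more in size. SE was the log2 fold change divided by the root of F. CPM used the table's totals, and 3 counts correspond to 7.86 to 10.4 CPM in MII oocytes, 3.89 to 7.10 in PN embryos and 1.22 to 1.83 in sperm, for counting error only. Ratios used sums over the variants of each miRNA with 0.5 added to each sum, and two-sided exact permutation tests. The planned ratio of the arms of miR-181a gave no value, as no 3p name of it was listed, so the adjustment covered 6 comparisons. The test was also run on simulated data with changes in PN embryos only, for PN embryos against MII oocytes. That run does not check the comparisons of sperm.

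All members with a mean of at least 10 CPM in a group were described with their values. The members and lists were chosen with earlier results of these data known. Alternatives were other scalings, filters, thresholds, handling of rows and depth, the Wald test of DESeq2 1.42.0, a replicate block and leaving out each library. Mature sequences were not used here.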

Additional observations from a re-analysis of the deposited data

How the results depend on the processing

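Of 30 fold changes (10 names, 3 comparisons), 16 kept their direction and their call under all of the up to 20 alternatives run. The ratio of the arms of miR-181a was not run. The count of members called between PN embryos and MII oocytes, 0 with all settings as stated, was 3 at q under 0.05 alone, 1 with library totals alone and 1 with rows of identical counts counted once, the last 2 through mdo-miR-26-5p_R+3, and ran from 0 to 1 when each library was left out. Between sperm and MII oocytes it ran from 6 to 7 without each library. It fell from 7 to 4 of 8 names tested at equal depth (6 to 4 for sperm and PN embryos). At equal depth mdo-miR-181a-5p_R+3 and efu-miR-181f were not tested. Without these names 5 of 8 and 4 of 8 were called at full depth, so between sperm and PN embryos the count did not fall. Between sperm and PN embryos it ran from 6 to 7 without each library, as miR-181a crossed the fold threshold without PN embryo library 3 (1.01) or sperm library 1 (1.03). It did so too with DESeq2 size factors (1.00), no filter (1.01) and the Wald test (1.00), for 7 each, and with variants summed 5 of 9 were called. Thinning to equal depth moved the median of all names (log2) from 0 to -0.69 between sperm and MII oocytes and from -0.52 to -1.12 between sperm and PN embryos. Library totals alone moved the latter median to -0.66 and DESeq2 size factors to -0.32.

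The difference in the log2 ratio of miR-26a to the miR-26b variant was followed with each library left out. Between PN embryos and MII oocytes it ran from -0.011 to 0.32, and was negative without MII oocyte library 1. It ran from 1.78 to 2.11 between sperm and MII oocytes and from 1.72 to 1.83 between sperm and PN embryos. For miR-181a to miR-181b the ranges were 0.36 to 0.47, 6.50 to 7.29 and 6.07 to 6.87.

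All changes of sign fell on values that passed no test. Without each library in turn, miR-181d ran from -0.50 to 0.59 between PN embryos and MII oocytes, and the miR-26b variant from -0.28 to 0.30. Between sperm and MII oocytes the variant ran from -0.35 to 0.17. Between sperm and PN embryos miR-181c ran from -0.49 to 0.10 and the miR-26b variant from -0.27 to 0.089. With rows of identical counts counted once, the miR-26b variant turned to 0.14 in the first comparison. At equal depth miR-181c turned to -0.022 in the second. In the last, mdo-miR-26-5p_R+3 turned to -0.078 with library totals alone, -0.20 with repeated names counted once and -0.16 at equal depth. The causes were not tested.

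Same-numbered libraries showed no shared deviation. Their deviations correlated at -0.10 to 0.00 (PN embryos and MII oocytes), -0.21 to -0.04 (sperm and MII oocytes) and 0.00 to 0.03 (sperm and PN embryos). Whether libraries of the same number were collected together cannot be read from these values. With a replicate block, 0, 6 and 6 members were called, with efu-miR-181f losing its call between sperm and MII oocytes (q = 0.0612), and 50 of 587 names, rather than 76, were called between PN embryos and MII oocytes. Summing variants by mature name gave 38 of 485 there.

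The MII oocyte libraries held at most 15 counts of miR-181c, 9 of mdo-miR-26-5p_R+3, 14 of mdo-miR-181a-5p_R+3 and 6 of efu-miR-181f, so these values rest on few reads.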
